A study of Mus musculus with 5 samples.

Results

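Epithelial-state synovial sarcoma (SyS) cells were picked out of single-cell RNA-seq libraries from 5 mouse SyS tumours by a rule on detected genes. A cell entered the SyS gate when it had at least 750 detected genes and at most 25% mitochondrial UMIs, carried at least 3 of 8 SyS genes (Adgrb3, Sox11, Tle1, Hmga2, Reln, Nxph1, Epha5 and Gpc3), and held at most 1 UMI in total of Ptprc, Cdh5, Csf1r and Rgs5, which mark leukocytes, endothelium, macrophages and pericytes. A gate cell was a member when Epcam and at least 2 of the 6 partner genes Cdh1, Esrp1, Grhl2, Cldn7, Krt8 and Spint1 were detected. The rule found 1523 members among 30700 gate cells and 51670 called cells. BP replicate 1 gave 385 of them, BP replicate 2 310, MP 271, MP+BP 487 and PD+MP 70. The comparator was the 8418 gate cells of the same tumours with at least 5000 UMIs and no UMI of the 7 rule genes. Since the rule chose cells by these 7 genes, their levels are given below as a description and were not tested.

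All 5 tumours arose in hSS2 mice, which express the human SS18::SSX2 fusion from the Rosa26 locus after TATCre protein is injected into the limb early in postnatal life, and all were collected at morbidity. The labels named 2 tumours BP (biphasic, with an epithelial component beside the spindle cells), 1 MP (monophasic, spindle cells), 1 MP+BP and 1 PD+MP (poorly differentiated and monophasic), from the histology of adjacent tissue. No tumour without the fusion was analysed here. Part of each tumour was dissociated and sequenced unsorted, so that host leukocytes and endothelium were included, and age at collection was not given for each tumour in the sources used here. The fusion itself has no entry in the reference and was not measured. The labels of the BP tumours begin with the same number and do not say whether both came from 1 animal, so p-values measure the spread between these samples.

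An epithelial cell is held together by tight junctions, adherens junctions and desmosomes, carries keratin filaments and sorts its membrane into apical and basal domains. EPCAM is an adhesion protein of epithelia, CDH1 (E-cadherin) is the adhesion receptor of their adherens junctions, ESRP1 is an epithelial splicing factor, GRHL2 is a transcription factor that activates junction genes, CLDN7 is a tight junction protein, KRT8 is a simple keratin and SPINT1 inhibits membrane serine proteases. In many tissues this program is opposed by repressors of the ZEB and SNAI families, which bind E-box sequences in epithelial promoters. SyS is a sarcoma that can nevertheless form glands, and the biphasic subtype is defined by them.

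The members were far deeper than the cells they were compared with, and this touches every result below. Their median was between 20664 UMIs in MP+BP and 33181 in MP, against 8438 in BP replicate 2 to 9425.5 in BP replicate 1 for comparator cells. Detecting several genes is more likely in a deep cell, so each difference between states is also given for members paired with a comparator cell of nearly the same UMI total in the same tumour, termed the UMI-matched comparison. It kept 1046 members, from 66 in PD+MP to 416 in MP+BP, at medians of 16060 to 22893 UMIs against 16083.5 to 21862.5 in their partners. Cells with the highest doublet scores were marked up to a preset rate, 7.14% to 9.25% of kept cells per tumour. The score's automatic threshold marked 0 cells in PD+MP and 69 to 307 in the other tumours. Under the preset rate, 15.5% to 18.6% of members per tumour were marked, against 6.25% to 7.86% of comparator cells. Mitochondrial and ribosomal shares of members were lower in every tumour, with ribosomal medians of 9.27% to 14.1% against 9.95% to 18.0%. No member barcode occurred in more than 1 library. EGFP, a reporter entry of the reference, stood at 32.9 to 44.1 CPM (counts per 1e+06 UMIs of the summed cells) in members and 26.1 to 36.3 CPM in comparator cells, and members carried a median of 7 or 8 of the 8 gate genes against 6.

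Members made up 9.17% of the gate cells of BP replicate 1 (95% exact binomial interval 8.31% to 10.1%). The share was 4.03% (3.60% to 4.49%) for BP replicate 2, 7.06% for MP+BP, 5.20% for MP and 1.05% for PD+MP. The monophasic tumour thus lay among the biphasic ones. The last 2 shares had intervals of 4.61% to 5.83% and 0.816% to 1.32%. When every gate cell of at least 5000 UMIs was thinned to 5000, the shares were 2.13% (1.69% to 2.66%) and 0.778% (0.580% to 1.02%) in BP replicates 1 and 2, 3.22% in MP+BP, 0.396% in MP and 0.343% in PD+MP, with 17 cells left in each of the last. At equal depth, then, all 3 tumours with BP in the label lay above both without it. The mean share was 6.75% ± 2.58 (SD, n = 3) with BP and 3.12% ± 2.94 (SD, n = 2) without, a difference of 3.63 percentage points (exact permutation test, two-sided, p = 0.4), and 2.04% ± 1.22 against 0.370% ± 0.0377 after thinning, a difference of 1.67 points (exact permutation test, two-sided, p = 0.2). With 3 tumours against 2 the smallest p this test allows is 0.2. Intervals cover counting error only.

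Macrophage-gate cells were read beside these shares, although they did not lack every rule gene. They met the epithelial part of the rule in 5 of 615 cells of BP replicate 1, 0 of 615 of BP replicate 2 (which allows a share of up to 0.488%), 4 of 371 of MP, 2 of 352 of MP+BP and 1 of 659 of PD+MP. After thinning, their shares of 0.924%, 0%, 1.18%, 0.556% and 0.234% in that order lay below the SyS share in every tumour but MP, where macrophages stood higher. With 180 to 433 thinned macrophages, the intervals of both cell kinds overlapped in every tumour. The median of macrophage-gate cells was 5008 to 6816 UMIs before thinning. Spint1 was found in 7.16%, 9.44% and 4.68% of thinned macrophages of BP replicate 1, MP+BP and PD+MP, against 3.93%, 5.68% and 0.727% of thinned gate cells, and in no thinned endothelial cell. In BP replicate 2 and MP Spint1 was lower in macrophages, at 0.649% and 5.51% against 1.04% and 9.12%. In thinned macrophages of BP replicate 1, MP and MP+BP, Cdh1 was detected in 2.54%, 3.94% and 3.89%. Thinned gate cells held Cdh1 in 1.99%, 0.326% and 2.41%. In BP replicate 2 and PD+MP Cdh1 was lower in macrophages. No endothelial-gate cell met the rule in any tumour, among 47 to 422 cells. Macrophages are thus no clean background for a rule that holds Spint1 and Cdh1. Only 0 to 4 thinned macrophages per tumour met the rule, and whether the SyS shares differed from those of macrophages was not tested.

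**Figure D1:**
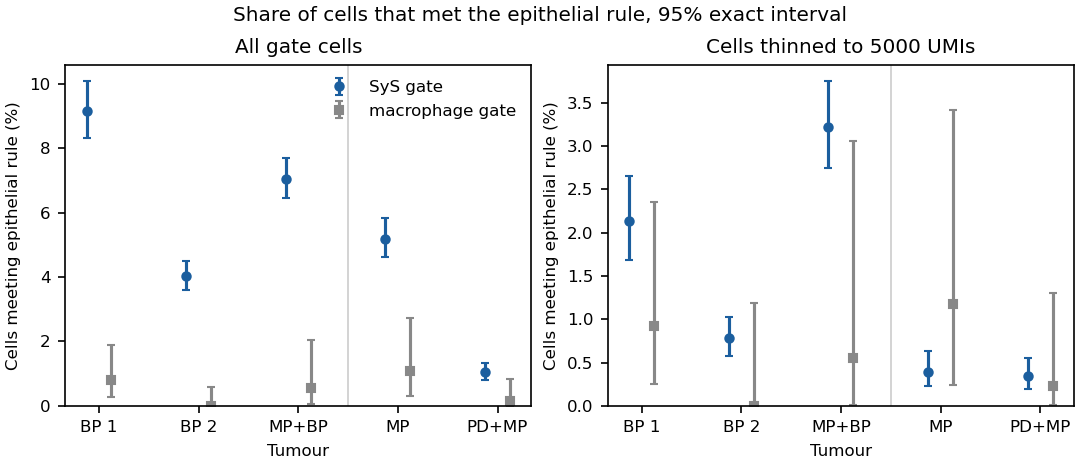
Percentage of SyS-gate (circles) and macrophage-gate (squares) cells that met the epithelial rule in each tumour, with 95% exact binomial intervals, for all gate cells (left) and for cells thinned to 5000 UMIs (right). The SyS share of MP fell from 5.20% to 0.396% with thinning, below the macrophages of that tumour, while MP+BP kept 3.22%.

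The members of different tumours rested on different partner genes. Esrp1 was detected in 71.4% and 75.2% of members in BP replicates 1 and 2 and 79.3% in MP+BP, and Grhl2 in 68.3%, 72.6% and 79.1%. The most frequent set of partners was Esrp1 with Grhl2 in all 3, at 20%, 34.5% and 19.3% of members. In MP, Spint1 was detected in 89.3% of members but Krt8 in 2.58% and Cdh1 in 7.75%, and Grhl2 with Spint1 was the leading set (43.5%). In PD+MP the order differed again, with Krt8 in 84.3% and Grhl2 in 21.4%, and Esrp1 with Krt8 led (27.1%).

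**Figure D2:**
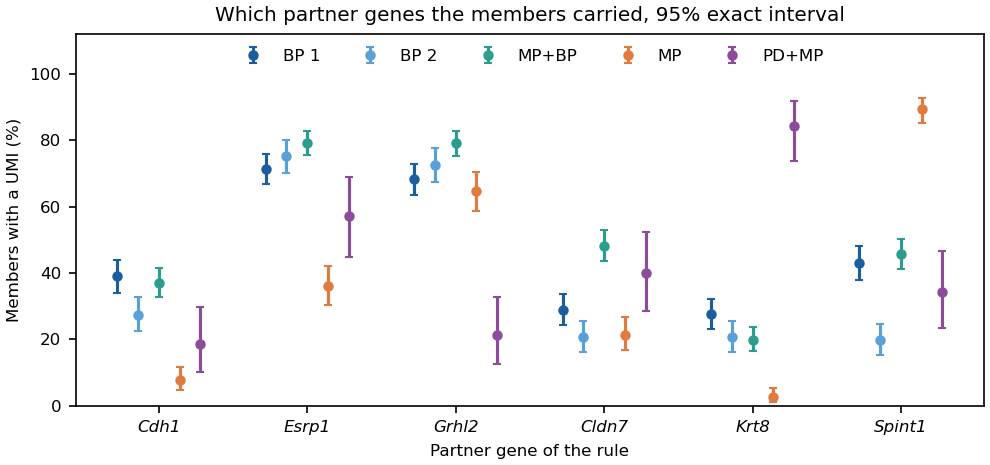
Percentage of members in which each of the 6 partner genes was detected, per tumour, with 95% exact binomial intervals. MP stood apart by Spint1 at 89.3% and PD+MP by Krt8 at 84.3%, whereas the 3 tumours with BP in the label shared high Esrp1 and Grhl2.

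Summed over members, Epcam reached 288 and 343 CPM in the BP replicates, 120 CPM in MP, 337 CPM for MP+BP and 309.5 CPM for PD+MP. Cdh1 stood at 36.5, 13.95, 2.63, 39.2 and 8.70 CPM in the same order, so that MP held least of both adhesion genes. Krt8 was lowest in MP, at 1.31 CPM, and highest in PD+MP, at 77.8 CPM. Comparator cells were at 0 for all 7 by the rule. The rule's edge was crowded. Of Epcam-positive gate cells in BP replicate 1, 226 had 2 partners, 687 had 1 and 1491 had none. In PD+MP 50 had 2, 482 had 1 and 2466 had none. Cells with 1 partner were shallower, with medians of 12956 to 20652 UMIs against 18884 to 30529 for those with 2. Beyond the edge, 54, 58, 61, 276 and 20 gate cells of BP replicate 1, BP replicate 2, MP, MP+BP and PD+MP had 2 or more partners without Epcam.

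Outside the rule's genes, 16123 genes were tested between members and comparator cells with the tumour as a block (edgeR's quasi-likelihood test, with p adjusted by Benjamini and Hochberg and a threshold of 0.05). Of these, 1780 were higher in members (11% of those tested) and 2437 lower (15.1%). Against UMI-matched comparator cells, 13052 genes could be tested and 130 were higher (0.996%) and 55 lower (0.421%). The shares of both comparisons are the background for the list counts below. The 2 comparisons shared 103 higher genes (0.789% of genes tested in both), which were 5.79% of the first and 79.2% of the matched calls, and 17 lower genes (0.13%), which were 0.698% and 30.9%. Most calls against all comparator cells were thus not made when matched. Of the higher calls, 1675 could be tested when matched and 1263 kept their sign, and of the lower calls 1574 of 2245 did. The matched comparison also used fewer cells, 1046 of 1523 members. How far depth and cell number each lowered the counts was not tested. Leaving out BP replicate 1, BP replicate 2 or MP lowered the count of 1780 higher genes to 885, 1121 and 1169. Leaving out BP replicate 1, BP replicate 2 or MP+BP lowered the matched count of 130 to 72, 69 and 61.

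Tight junction and polarity genes were higher in members. Of 24 listed genes 19 were tested and 15 rose, none fell, with a median log2 fold change of 0.75 where that of all genes was -0.01. In the UMI-matched comparison 6 of 16 rose, or 3 of 16 without BP replicate 2. Crb3, which builds the apical Crumbs complex, stood at 29.1, 13.7, 5.82, 55.2 and 13.8 CPM in members of BP replicate 1, BP replicate 2, MP, MP+BP and PD+MP, and at 6.31, 2.44, 2.67, 4.11 and 2.58 CPM in comparator cells. Members were higher within each tumour, and only the MP value lay inside the range of comparator cells. The log2 difference was 2.52 ± 0.28 (SE, edgeR adjusted p = 0.000137), and 3.31 ± 0.23 when matched (edgeR adjusted p = 9.29e-06). Cldn6, an embryonic claudin of tight junctions, reached 13.8, 6.33, 0.282, 32.3 and 21.5 CPM in members in that order, against 1.26 CPM or less in any comparator sum. Its log2 difference was 4.63 ± 0.38 (edgeR adjusted p = 3.14e-05), and too few of its matched sums held enough UMIs for a test. In MP, Cldn6 rested on 3 UMIs in members and 2 in comparator cells, and when matched on 0 and 2. It was higher in matched members of 4 tumours. Patj, a Crumbs complex scaffold, rose by 0.65 ± 0.08 on the log2 scale and was also called when matched. Against this pattern, Cldn1 was nearly absent, with 11 UMIs in all members.

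Desmosome and adherens junction genes moved with them, 11 of 12 tested having risen (median 0.50) and 6 of 11 when matched, or 2 of 11 without MP+BP. Dsp (desmoplakin, the linker from desmosome to keratin) stood at 45.4, 27.9, 6.01, 51.5 and 25.6 CPM in members of BP replicate 1, BP replicate 2, MP, MP+BP and PD+MP, and at 13.4, 11.4, 2.24, 5.94 and 3.24 CPM in comparator cells. Each tumour was higher in members, while MP members stayed below the comparator cells of both BP tumours. The log2 difference was 2.03 ± 0.25 (edgeR adjusted p = 0.000222), and 2.12 ± 0.24 when matched. Ppl (periplakin) rose by 1.31 ± 0.20, Perp, a desmosomal membrane protein, by 2.46 ± 0.42, and both were also called when matched. Ctnna1 (alpha-catenin) rose by 0.38 ± 0.07, and was 0.36 ± 0.08 and higher in 5 of 5 tumours when matched, without passing (edgeR adjusted p = 0.0573). Among keratins, Krt18, the partner of KRT8 in simple epithelia, was the only one of 11 with enough UMIs to test. It stood at 71.2, 27.8, 34.6, 42.6 and 56.3 CPM in members and at 28.9, 14.1, 26.8, 5.21 and 26.9 CPM in comparator cells, a log2 difference of 1.21 ± 0.27 (edgeR adjusted p = 0.00733) and 1.79 ± 0.28 when matched. Krt5, Krt7 and Krt20 had no UMI in any member. Krt14 had 247 UMIs in members, all of them in 1 cell of BP replicate 1.

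Of the listed epithelial regulators, 12 of 18 tested rose (median 0.80), none fell, and 4 of 13 rose when matched. Rab25, a small GTPase of apical recycling endosomes, had the largest difference of the list. It stood at 22.0, 3.63, 1.31, 50.4 and 16.9 CPM in members of BP replicate 1, BP replicate 2, MP, MP+BP and PD+MP, and at 0.421, 0.283, 0.361, 1.06 and 0.141 CPM in comparator cells. The 2 states did not overlap across tumours, though MP members exceeded the MP+BP comparator cells by little. The log2 difference was 5.23 ± 0.34 (edgeR adjusted p = 5.08e-06), and 5.47 ± 0.30 when matched (edgeR adjusted p = 9.52e-07). Ovol2, a zinc-finger repressor that maintains epithelial identity, rose by 1.10 ± 0.16 and by 1.69 ± 0.21 when matched. Esrp2, the close relative of Esrp1, rose by 1.71 ± 0.29 and Elf3, an epithelial ETS factor, by 1.67 ± 0.29. Both had too few UMIs for a matched test. Pax8 and Trp63, regulators of glandular and stratified epithelia, had 7 and 30 UMIs in all members.

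When the rule itself was applied to cells thinned to 5000 UMIs, an alternative added after the data were seen that left out MP and PD+MP for having under 20 members, 288 of 17096 genes were higher (1.68%) and 140 lower (0.819%). Taking the 4 lists of junction, keratin and regulator genes as 1 set of 74, 39 of 50 tested rose and none fell. This was 17 of 41 when matched, and 20 of 42 when matched without MP. Without BP replicate 1 the counts were 28 of 48 and, when matched, 12 of 41, without BP replicate 2 36 of 49 and 11 of 41, and without MP+BP 33 of 50 and 10 of 42. Under the rule at 5000 UMIs 34 of 54 rose, with a median of 1.85.

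**Figure D3:**
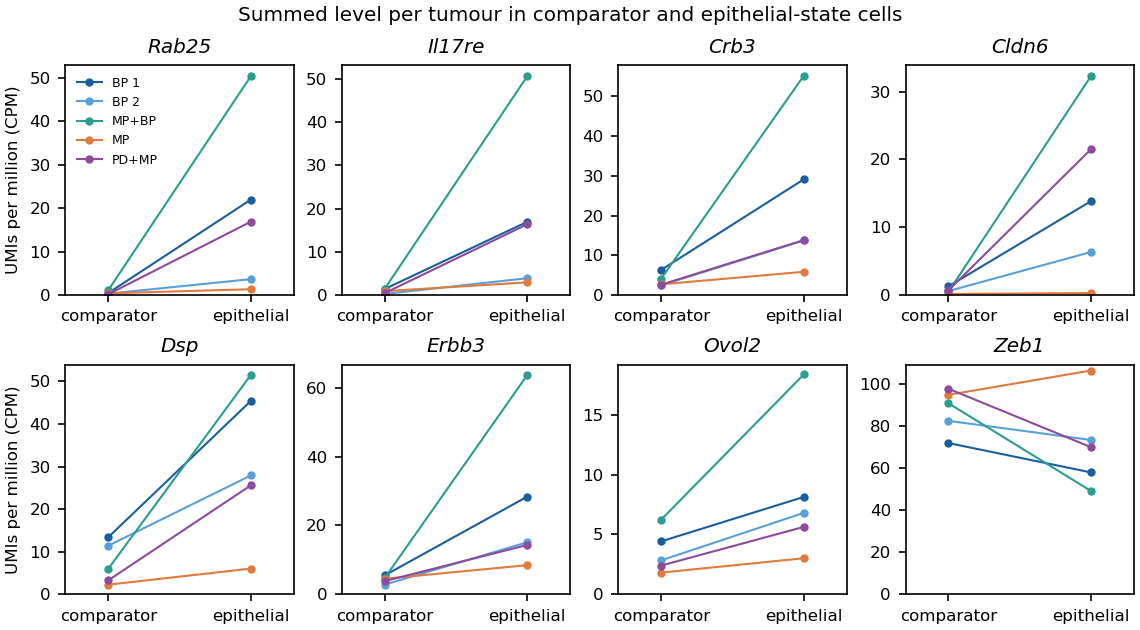
Level in CPM of 8 genes summed over comparator and epithelial-state cells, each line joining both states of 1 tumour, with vertical axes that start at 0 and differ between panels. MP+BP had the highest member level of Rab25, at 50.4 CPM, and MP the lowest, at 1.31 CPM, and Zeb1 was lower in members of all tumours but MP.

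To set sequence beside these values, the 250 bases before the transcription start of genes that rose in both comparisons were read from RefSeq (GRCm38.p6) and searched on both strands for CACCTG, the E-box form bound by ZEB and SNAI proteins, and for AACCNGTT, a form bound by grainyhead factors. Of the 17 junction, keratin and regulator genes called in both comparisons 12 had a promoter in the table, and 8 of these 12 held CACCTG (66.7%), against 17.2% of all 32851 promoter windows of that length. Of the 12, 1 held AACCNGTT, against 1.79% of all windows. These are counts of letters with no test, and they show neither binding nor regulation. The sequences below are written 5′ to 3′ on the gene's strand, with either motif in capitals. They show a rule gene, 3 of the 12 genes with several matches, and Dsp, which held neither. Besides the 12, 3 named genes were searched. Sfn, which also rose in both comparisons, held both motifs, at 41 and 184 bases before its start. Cldn6 held CACCTG only, and Il17re, which rose in both comparisons, held neither. Of 4 rule genes with a promoter, 2 held CACCTG (Epcam and Krt8) and 0 held AACCNGTT, Cldn7 and Spint1 having held neither.
Epcam, chr17:87635729-87635978, plus strand: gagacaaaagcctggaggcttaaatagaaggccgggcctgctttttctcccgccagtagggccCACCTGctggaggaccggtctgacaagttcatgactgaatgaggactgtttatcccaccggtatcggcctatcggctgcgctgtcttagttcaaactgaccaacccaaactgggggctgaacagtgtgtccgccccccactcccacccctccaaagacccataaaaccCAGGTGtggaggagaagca
Rab25, chr3:88548280-88548529, minus strand: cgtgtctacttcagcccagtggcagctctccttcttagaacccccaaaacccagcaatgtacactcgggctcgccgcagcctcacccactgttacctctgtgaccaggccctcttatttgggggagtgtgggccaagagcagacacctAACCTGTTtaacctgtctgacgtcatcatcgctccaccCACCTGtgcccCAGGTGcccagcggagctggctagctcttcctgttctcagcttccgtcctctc
Crb3, chr17:57061951-57062200, plus strand: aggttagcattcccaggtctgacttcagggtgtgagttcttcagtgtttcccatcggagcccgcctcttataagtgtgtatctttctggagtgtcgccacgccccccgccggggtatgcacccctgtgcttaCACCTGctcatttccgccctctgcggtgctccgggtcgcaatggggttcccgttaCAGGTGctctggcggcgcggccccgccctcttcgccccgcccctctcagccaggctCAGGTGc
Lsr, chr7:30973470-30973719, minus strand: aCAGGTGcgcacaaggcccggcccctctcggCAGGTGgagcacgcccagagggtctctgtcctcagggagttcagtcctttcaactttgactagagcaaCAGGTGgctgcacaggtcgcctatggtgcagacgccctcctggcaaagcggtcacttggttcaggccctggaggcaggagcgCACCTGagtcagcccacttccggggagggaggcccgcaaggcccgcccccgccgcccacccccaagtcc
Dsp, chr13:38151044-38151293, plus strand: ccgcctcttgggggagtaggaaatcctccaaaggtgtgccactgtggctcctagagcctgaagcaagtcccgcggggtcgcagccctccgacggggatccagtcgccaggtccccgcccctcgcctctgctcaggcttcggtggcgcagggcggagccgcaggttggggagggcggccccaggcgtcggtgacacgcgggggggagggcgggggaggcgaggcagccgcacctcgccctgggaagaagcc
Rab25, the gene with the largest difference, held CACCTG at 64 and 53 bases and AACCNGTT at 102 bases before its start, without overlap. Crb3 held 3 matches to CACCTG and Lsr, which encodes a protein of tricellular junctions and rose by 0.66 ± 0.12 on the log2 scale, held 4.

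Zeb1, a repressor known to bind E-boxes, was lower in members. It stood at 58.0, 73.5, 107, 49.2 and 70.1 CPM in members of BP replicate 1, BP replicate 2, MP, MP+BP and PD+MP, and at 72.0, 82.6, 95.01, 91.0 and 97.9 CPM in comparator cells. It was lower in members of every tumour but MP, with overlapping ranges. The log2 difference was -0.44 ± 0.11 (edgeR adjusted p = 0.0135), and -0.86 ± 0.12 when matched (edgeR adjusted p = 0.00378), where all 5 tumours were lower, at 42.1, 58.9, 85.1, 41.3 and 68.2 CPM against 75.9, 96.1, 109, 109 and 114 CPM. Of matched members, 33.5%, 43.1%, 70.8%, 36.5% and 54.5% held a UMI of Zeb1, against 56.2%, 70.8%, 77.3%, 68.8% and 72.7% of their matched partners. The gap was smallest in MP.

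Of 25 mesenchymal genes tested against all comparator cells 15 fell and none rose (median log2 difference -0.43), where 15.1% and 11% of all genes did. When matched, against 0.421% of all genes, 4 of the 22 tested were lower (median -0.18). These were Zeb1, its relative Zeb2 (-0.43 ± 0.09), the mesenchymal cadherin Cdh11 (-0.50 ± 0.08) and Cdh2, N-cadherin (-0.42 ± 0.07). Against all comparator cells Zeb2 and Cdh2 were not called (edgeR adjusted p = 0.0672 and 0.495). These 4 genes and Mmp2 were named after their values were seen. Of the collagens, Col3a1 had the smallest adjusted p of the list against all comparator cells, a log2 difference of -1.28 ± 0.13 (edgeR adjusted p = 8.39e-05), yet was 0.03 ± 0.43 when matched. Col5a2 (-0.78 ± 0.09), Prrx1, a limb mesenchyme factor (-0.63 ± 0.10), and Snai2 (-0.89 ± 0.15) also fell and were not called when matched, Snai2 at -0.92 ± 0.27 (edgeR adjusted p = 0.130). Mmp2, a collagenase of mesenchymal cells, was lower in both comparisons (-0.73 ± 0.09 and -0.81 ± 0.15). When matched, Mmp2 was higher in members of PD+MP alone, at 5.58 against 0.628 CPM. Members kept mesenchymal transcripts, at 2001 to 2813 CPM summed over the list against 2135 to 3545 CPM in comparator cells.

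**Figure D4:**
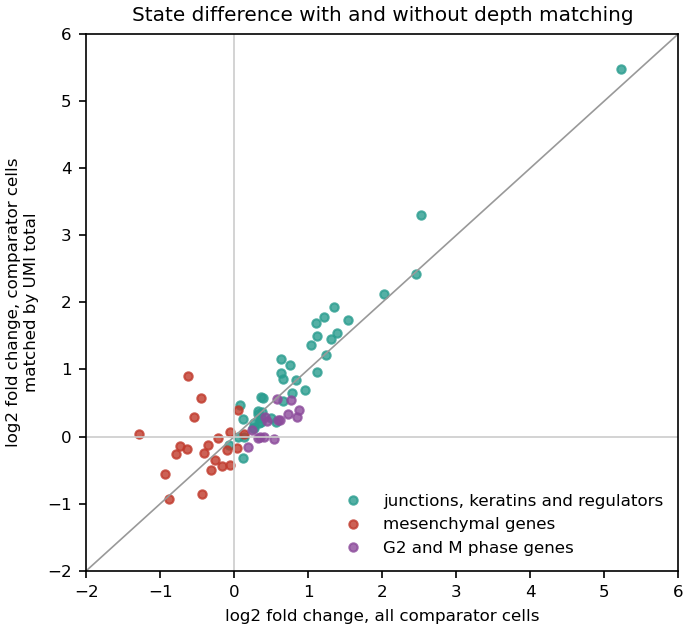
Log2 fold change of epithelial-state over comparator cells for listed genes, against all comparator cells (horizontal) and against UMI-matched ones (vertical), with the line of equality. When matched, 17 of 41 junction, keratin and regulator genes were called higher, and the median of the G2 and M phase genes moved from 0.53 to 0.25.

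Members were not uniform. Rab25, Il17re, Crb3 and Cldn6, 4 genes outside the rule that were picked for this count after their differences were seen, were used to ask how many members carried at least 2 of them. Among members with 2, 3 and 4 or more partner genes, the share was 7.96%, 20% and 60.8% for BP replicate 1, 6.14%, 8.62% and 37.5% for BP replicate 2, 2.25%, 7.50% and 11.1% for MP, 13.9%, 36.8% and 78.1% for MP+BP, and 6%, 40% and 90% for PD+MP. Since the classes come from the rule's own genes and the 4 genes were chosen for their difference, these shares describe the members and support nothing further. The last class held 79, 24, 9, 160 and 10 cells, so the interval of MP ran from 0.281% to 48.2%. Of matched comparator cells, 0 to 1.52% per tumour carried 2 of the 4, against 3.90% (MP) to 41.8% (MP+BP) of matched members. PD+MP had the fewest members but, among those with 4 or more partners, 9 of 10 carried at least 2 of the 4, and Zeb1 was detected in 1 of these 10 against 34 of 50 with 2 partners. For 2, 3 and 4 or more partners, Zeb1 was detected in 52.0%, 40.8% and 27.5% of members of MP+BP and 64.6%, 47.5% and 43.0% of BP replicate 1. No such fall was seen in BP replicate 2 (59.6%, 51.7% and 58.3%) or MP (79.7%, 90% and 88.9%). In the same order of classes, median UMIs were 23961, 17513 and 15273 in PD+MP and 30528.5, 54727 and 38543 in MP. They were 18883.5, 17953 and 25749 in MP+BP and 28625.5, 29182 and 30028 in BP replicate 1. BP replicate 2 had 22952, 20152 and 26004. The cells of the classes were thus not of equal depth, and its part in the Zeb1 shares was not tested. These cells share their tumour and are not replicates, and no test was run over them.

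**Figure D5:**
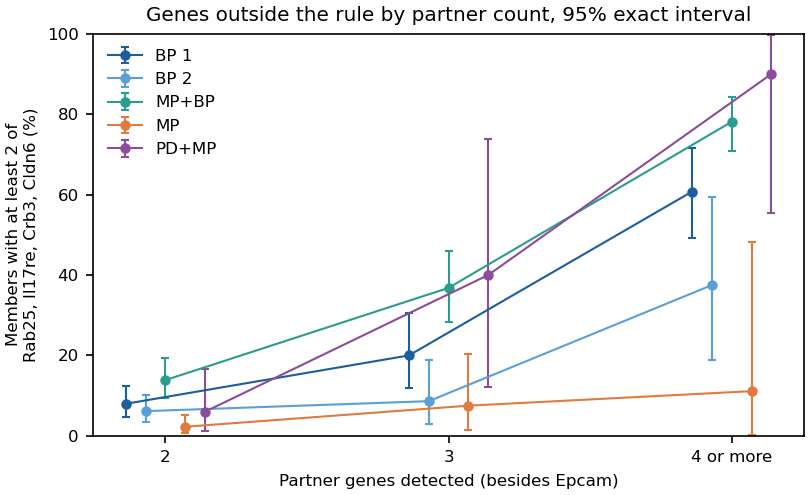
Percentage of members carrying at least 2 of Rab25, Il17re, Crb3 and Cldn6, by the number of partner genes detected, per tumour, with 95% exact binomial intervals. In the class of 4 or more the share was 90% in PD+MP, 78.1% in MP+BP and 11.1% in MP.

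Surface and basement membrane genes were read next. Of 4 tested membrane serine proteases and inhibitors, St14 (matriptase, the protease that SPINT1 inhibits) rose, by 1.39 ± 0.18 and by 1.55 ± 0.19 when matched, where Spint2 rose too (0.60, edgeR adjusted p = 0.00175). Klk10 and Serpinb5 had 1 UMI each in all members. Of 15 tested apical surface and gland genes 7 rose, and 2 of 12 when matched, or 0 without BP replicate 1 or BP replicate 2 and 1 without MP+BP. These 2 were Ezr (ezrin, 0.31 ± 0.07 when matched) and Aqp5, a water channel of secretory glands (0.77 ± 0.17 when matched), which was higher in 4 of 5 tumours. Myo5b and Slc9a3r1, of apical trafficking and microvilli, rose by 0.81 ± 0.14 and 0.48 ± 0.10, and were 0.53 and 0.38 when matched, without passing. Muc16 had no UMI in members. Of 25 basement membrane genes and integrins 9 rose and 3 fell, a share of 36.0% higher, where 11% and 15.1% of all genes did. When matched 1 of 22 rose. Lamb1, Dag1 and Itga6 rose by 0.34, 0.22 and 0.35. When matched none of these 3 was called, Lamb1 being 0.29 and higher in 5 of 5 tumours, and Dag1 and Itga6 0.09 each.

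Among growth factor receptors and ligands, 11 of 26 tested rose and 1 fell, and 4 of 23 rose when matched, or 2 without BP replicate 1, BP replicate 2 or MP+BP. Erbb3, a neuregulin receptor, stood at 28.4, 15.1, 8.45, 63.8 and 14.3 CPM in members of BP replicate 1, BP replicate 2, MP, MP+BP and PD+MP, and at 5.47, 2.77, 4.47, 4.70 and 3.80 CPM in comparator cells. The states did not overlap across tumours, though Erbb3 was detected in only 22.14% (MP) to 54.41% (MP+BP) of members. The log2 difference was 2.39 ± 0.31 (edgeR adjusted p = 0.000324), and 2.91 ± 0.28 when matched (edgeR adjusted p = 0.00021). Since Erbb3 is also a Schwann cell marker, the rest of that list was read. Sox10, its defining factor, had 53 UMIs in all members (0.07 ± 0.30 on the log2 scale), and the summed list was 21.4 to 78.3 CPM in members against 10.8 to 16.2 CPM in comparator cells, Erbb3 alone giving 8.45 to 63.8 CPM in members. The other 3 called when matched were the ligands Hbegf and Efna1 and the receptor Epha1, at 0.65, 1.01 and 1.20 on the log2 scale. Epha2, Ddr1 and Igf1r, tyrosine kinase receptors, rose by 0.59, 0.56 and 0.40, and were 0.37, 0.34 and 0.19 when matched, without passing. Of 38 Wnt, Notch, BMP and Hedgehog genes 8 rose and 5 fell, where 11% and 15.1% of all genes did, and none of 37 was called when matched. Among them Rnf43, a Wnt feedback ligase, rose by 0.84 ± 0.12, the receptors Notch1 and Notch3 by 0.34 and 0.61, and Hes1, a Notch target, fell by 0.38 on the log2 scale.

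Of 19 SyS identity genes outside the gate 4 rose and 2 fell, where 11% and 15.1% of all genes did, with a median of 0.03, and none was called when matched. Hs6st3, a heparan sulfate sulfotransferase, rose by 0.52 ± 0.07, Tle3 by 0.31 ± 0.05 and Zic2 by 0.25 ± 0.05, and Hes5 fell by 0.69 on the log2 scale. Of the study's sarcomagenesis activated transcription (SAT) list, genes that switch on between the cell of origin and SyS, 160 of 175 outside the rule were tested, 31 rose and 10 fell (19.4% higher), and 14 of 144 rose and 2 fell when matched. The study chose this list with SyS transcriptomes in hand, so it is not independent evidence of direction. Its members that rose include Crb3, Dsp and St14, named above, beside Il17re, an interleukin-17 family receptor, and Grb7, an adaptor of receptor tyrosine kinases. Il17re stood at 16.9, 3.87, 2.91, 50.7 and 16.4 CPM in members of BP replicate 1, BP replicate 2, MP, MP+BP and PD+MP, and at 1.37, 0.226, 0.866, 1.43 and 0.422 CPM in comparator cells, again without overlap (4.31 ± 0.35, and 5.25 ± 0.27 when matched, edgeR adjusted p = 3.31e-05 and 9.52e-07). Il17re was detected in only 8.065% (BP replicate 2) to 44.15% (MP+BP) of members. Grb7 rose by 2.89 ± 0.33 and had too few UMIs when matched. Rbm47, an RNA-binding protein of epithelia, and Cartpt, a neuropeptide precursor, were named after their values were seen, and rose by 1.39 ± 0.21 and 0.99 ± 0.24, and by 1.35 ± 0.23 and 2.89 ± 0.29 when matched. Cartpt was lower in members of PD+MP, at 0.512 against 4.51 CPM.

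Proliferation genes differed with the comparator. Of 15 genes of G2 and M phase 11 rose against all comparator cells (Mki67 by 0.85 ± 0.10, Cenpf by 0.87 ± 0.15, Kif11 by 0.53 ± 0.10 and Tpx2 by 0.61 ± 0.12), and 1 of 15 when matched, Ccnb2 (0.55 ± 0.12), a mitotic cyclin (Mki67 0.29 ± 0.11, edgeR adjusted p = 0.236, and Kif11 -0.03 ± 0.10). Of 15 S phase genes 1 rose (Rrm1, 0.22 ± 0.06) and 3 fell (Tyms, Gins2 and Pcna, by 0.28, 0.31 and 0.23 on the log2 scale), none of these 4 being called when matched. Of all genes 11% rose and 15.1% fell. Cdt1, a replication licensing factor, was the 1 S phase gene lower when matched (-0.71 ± 0.15). Of 19 BAF subunit genes 5 rose and 2 fell, where 11% and 15.1% of all genes did. Smarca4, Arid1a, Bicra and Dpf2 were among those that rose, by 0.22 to 0.45. None of the 19 was called when matched. Of 16 genes induced by tissue dissociation 3 rose and 2 fell, near the 11% and 15.1% of all genes. When matched 3 of 16 rose, where 0.996% of all genes did. They were the heat shock genes Hspa1a and Hspa1b (0.70 ± 0.11 and 1.07 ± 0.13) and Atf3 (0.78 ± 0.17), a stress-induced factor. Another 3 were called only against all comparator cells. Of these Dusp1 went from 0.21 to 0.32 when matched, higher in 5 of 5 tumours (edgeR adjusted p = 0.0789), and Hsp90aa1 and Junb from -0.21 and -0.17 to 0.06 and 0.03.

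Outside the lists, the called genes with the largest rise in all 5 tumours were Gm16136, Fgfbp1, Arap2, Pdzk1ip1, 9130230L23Rik, 2310030G06Rik, Klc3, Rgs6, Mapk13 and Ripk4, at log2 differences of 1.33 (Ripk4) to 2.32 (Gm16136). Of these, 7 were also called when matched, Gm16136 and 2310030G06Rik having too few UMIs to test and Ripk4 having missed the threshold (edgeR adjusted p = 0.0524). When matched, Arap2 and Rgs6 were lower in PD+MP members, at 43.4 against 45.2 CPM and 22.3 against 30.2 CPM. Gm16136 (chr15:37231793-37233309, minus strand) overlaps the start of the rule gene Grhl2 (chr15:37233036-37363569, plus strand). Since the rule chose cells by Grhl2, the rise of Gm16136 may not be independent of the rule, which was not tested. Fgfbp1, a carrier of fibroblast growth factors, stood at 24.5, 5.63, 2.63, 33.8 and 23.5 CPM in members of BP replicate 1, BP replicate 2, MP, MP+BP and PD+MP against 5.68, 2.21, 2.16, 2.86 and 2.39 CPM in comparator cells. The MP values were close here but 5.51 against 2.38 CPM when matched (2.31 ± 0.36 on the log2 scale, and 2.45 ± 0.26 when matched). Mapk13, a p38 kinase, rose by 1.502 ± 0.29 and, when matched, by 2.25 ± 0.30. The largest falls were those of AY036118, Gm19951, Cmss1, Tac1, Dcc, Gm42418, 4930438E09Rik, Mctp1, Gm20631 and 8030451A03Rik, from -1.02 to -1.80. None of the 9 that could be tested was called when matched, but their differences were unlike. Mctp1 (-0.74), Tac1 (-0.73), 8030451A03Rik (-0.53) and 4930438E09Rik (-0.50) stayed lower, Mctp1 and 8030451A03Rik in all 5 tumours, and the other 5 lay between -0.10 and 0.13. Gm42418 and AY036118 overlap ribosomal RNA repeats, and reads over them are uncertain. Gm42418 was 2301 ± 520 CPM (SD, n = 5) in members against 3695 to 5402 CPM in comparator cells, and its log2 difference went from -1.18 ± 0.07 to 0.12 ± 0.07 when matched.

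Markers of other cell types were read as lists. The summed macrophage list was 25.2 to 95.01 CPM in members, 39.9 to 131 CPM in comparator cells and 24870 to 29910 CPM in macrophage-gate cells. Of its 10 genes 4 were lower in members and none higher. In the matched cells of BP replicate 1, however, it stood at 214 CPM against 38.8 CPM. Of 5 erythroid genes 3 were lower. In members of BP replicate 1, BP replicate 2, MP and MP+BP the summed endothelial list was higher. It stood at 222, 122, 152 and 177 CPM against 159, 96.04, 107 and 156 CPM. In PD+MP it was lower, at 50.6 against 57.3 CPM. Of its 7 tested genes 1 was higher and 2 lower, and none was called when matched. A UMI of the 4 excluded genes was commoner in members of each tumour, at 12.86% to 28.41% of cells against 3.619% to 14.04%. The part of depth in this was not tested. The skin keratinocyte list was 14.6 to 76.3 CPM in members against 9.16 to 66.6 CPM. Of its low genes, Krt5 and Dsc3 had no UMI in members and Dsg3 had 1, whereas Krtdap had 103 UMIs in members against 28 in comparator cells, Trp63 30 against 7, Krt15 25 against 4 and Krt14, in 1 cell, 247 against 1. Sfn, an epithelial 14-3-3 protein of that list, rose, standing at 3.99, 5.04, 3.29, 31.6 and 7.16 CPM in members of BP replicate 1, BP replicate 2, MP, MP+BP and PD+MP against 0.421, 1.47, 0.577, 4.81 and 1.69 CPM (2.35 ± 0.19 on the log2 scale and 3.57 ± 0.24 when matched, edgeR adjusted p = 3.14e-05 and 6.95e-06). Without the 352 members that carried 2 or more keratinocyte markers, and comparator cells treated alike, 37 of 48 junction, keratin and regulator genes rose, and without cells scored as doublets 37 of 49. The part of other cells' RNA in the differences was otherwise not tested.

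The tumours' histology labels were set against the members in 2 further tests. Between members of the 3 tumours whose label holds BP and the 2 others, no gene of 16275 was called in either direction (0.0% and 0.0%, smallest edgeR adjusted p = 0.276), 856 and 691 genes having an unadjusted p under 0.05, and DESeq2 called 181 higher and 48 lower. Whether the difference between states depended on the label was tested as an interaction, and again no gene of 16123 was called (0.0% and 0.0%, smallest edgeR adjusted p = 0.102), with 598 and 348 at an unadjusted p under 0.05 and 1 each way by DESeq2. In simulated data of this size the first test recovered 0% and 27% of genes changed by 1 and 2 log2 units, and the interaction test 65% and 86%. Of the listed genes the interaction of Erbb3 was 1.75 ± 0.46 and that of Patj 0.43 ± 0.11, both larger with BP, and neither passed (edgeR adjusted p = 0.771 for each). Members of MP were lowest of the 5 tumours for Cldn6 and Dsp with and without matching, whereas for Il17re they lay beside BP replicate 2, at 2.91 against 3.87 CPM and, matched, 4.68 against 4.03 CPM. Label and tumour cannot be told apart for MP, MP+BP and PD+MP, with 1 tumour each.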

How the data were processed

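Single-cell 3′ RNA-seq libraries of 5 tumours were analysed. The authors used Cell Ranger (version 7.2.0 by the matrix header), whose filtered output they deposited as unnormalized UMI counts, on mm10 per the submitters' processing notes. Free RNA had not been subtracted, which can place single UMIs in cells that do not express a gene. Totals were between 89996321 UMIs in BP replicate 1 and 118649103 in BP replicate 2. Members, gene lists and tests were chosen with earlier results of these data known.

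UMIs were summed per tumour and state and tested with edgeR 4.0.16 (quasi-likelihood, TMM, filterByExpr, tumour as block, adjusted p under 0.05). Both states of a tumour come from that tumour, which is the pairing. Genes used by the rule or gate and mitochondrial genes were left out of counts. UMI-matched partners lay within 0.2 log2 units. Doublets were scored with scanpy 1.11.5 and kept. Alternatives included DESeq2 1.42.0, other filters and scalings, and leaving out each tumour. Named genes were up to 4 called genes per list with the smallest adjusted p, up to 2 absent or opposed members, and the 10 highest and 10 lowest called genes outside the lists with 1 sign in all tumours and at least 5 CPM. Genes called in the UMI-matched comparison and named beyond this were chosen after their values were seen. In simulated sums the test between states recovered 87% and 97% of genes changed by 1 and 2 log2 units. Some listed genes that the rule names are not reported here.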

Additional observations from a re-analysis of the deposited data

Results flagged for a closer look

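Outside the SyS gate, 172 of 11816 kept cells also met the epithelial part of the rule, cells that entered no comparison above. BP replicate 1 held 43 of them, BP replicate 2 37, MP 44, MP+BP 47 and PD+MP 1. Of the 172, 140 held more than 1 UMI of the 4 excluded genes and 49 had fewer than 3 gate genes. Only 13 had at most 1 gate gene and at most 1 excluded UMI. No group held enough tumours to ask whether 1 stood apart from its group.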

How the results depend on the processing

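With 5 tumours, 1 or 2 per label, depth limits what was testable most in PD+MP (70 members). The count of 1780 higher genes became 130 against UMI-matched cells, 288 with the rule at 5000 UMIs, 0 without the replicate block and 4031 with total counts only, and 885 to 2220 when each tumour was left out. The 2437 lower genes became 55, 140, 3 and 1391 in that order, 1523 with DESeq2, and 1600 to 2382. Without BP replicate 1, BP replicate 2, MP, MP+BP and PD+MP the matched counts were 72, 69, 194, 61 and 135 higher and 42, 20, 83, 23 and 52 lower. By histology DESeq2 gave 181 and 48, and leaving out tumours 0 to 4 and 0 to 10. The interaction gave 1 and 1 with DESeq2, 1 and 1 without doublets, 2 lower when matched, and 0 to 4 each way without each tumour. The share difference ranged from 1.56 to 5.71 points.

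Directions that reversed when matched were those of Col3a1 (0.033), Notch1 (-0.011), Kif11 (-0.031), Rrm1 (-0.056), Dpf2 (-0.0023), Hsp90aa1 (0.059), Junb (0.025), Gm19951 (0.13) and Gm42418 (0.12). With the rule at 5000 UMIs they were Mki67 (-0.051), Kif11 (-0.34), Tpx2 (-0.14) and Rrm1 (-0.61), and with total counts only Cdh2 (0.059). The cause was not tested. Of 84 named genes, 5 kept their side of the threshold without the replicate block. The rule at 5000 UMIs, the matched counts without each tumour and the matched histology tests were chosen after seeing the data.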

Other observations

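Of genes too low to be tested, 2 were named after their values were seen. Cldn4, a tight junction claudin, had 77 UMIs in all members and 2 in comparator cells. Prr15l had 129 and 1.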
